A study of Homo sapiens with 8 samples.

Results

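Chromosome 19 is the human chromosome with the most protein-coding genes per megabase, and macroH2A1 domains were described along it in HepG2 cells. All domains placed on chromosome 19 were taken, 1186 of the 31673 domains in the 4 domain lists, together with the 176 of 4474 regions on chromosome 19 in the authors' deposited table of differential regions. By library, chromosome 19 held 298 of 7530 and 278 of 7404 domains in siANP32B cells, against 339 of 8623 and 271 of 8116 in siControl cells. Wherever values are given in pairs, replicate 1 comes before replicate 2.

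HepG2 is a human hepatoblastoma line used as a liver cell model, and the groups differ only in the small interfering RNA they were given. Cells received siRNA against ANP32B (siANP32B) or a control siRNA (siControl) by lipid transfection, were harvested 3 days later, frozen, thawed and profiled by CUT&RUN with 30 min of digestion. In CUT&RUN an antibody tethers a nuclease to its target in permeabilised cells, and the DNA cut free is sequenced. Of the 8 libraries, 2 per siRNA were made with anti-macroH2A1 and have a domain list each, and the 4 IgG libraries were not analysed here. The labels number the replicates without saying that they came from separate cultures, so the spreads and p-values below describe how these libraries vary, and that variation may be technical. With 2 libraries per group, the exact permutation test between groups cannot give a p below 0.333.

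MacroH2A1 is a variant of histone H2A with a large globular macro domain, and it lies in broad stretches over silent or weakly transcribed chromatin and at developmentally regulated genes. ANP32B is a small acidic histone-binding protein of the chaperone type, and the series asks how its loss affects macroH2A1 in chromatin. The long clusters of zinc finger genes on chromosome 19 encode transcription factors, most of them KRAB repressors that silence transposable elements through TRIM28, and in many cell types these clusters are themselves packed in chromatin with trimethylated H3K9. No RNA or protein was measured in the files used here, so neither the loss of ANP32B nor the hepatocyte identity of the cells was checked, and the sequencing depth is unknown.

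The upstream sequences of 4 genes are shown because the results turn on their loci. ZNF91, a KRAB zinc finger repressor of SVA retrotransposons, had its start in no domain of any library. ZNF541, a germ cell gene, was the only zinc finger gene of chromosome 19 covered over at least 50% of its body in every library, although 8 met a domain with some part in every library. IFNL1 encodes a type III interferon and had its start in a domain of all 4 libraries. UNC13A, which primes synaptic vesicles for release, held the region with the smallest p-value on chromosome 19 in the authors' deposited table. Each sequence is the 250 bases before the start listed in the RefSeq promoter table of build GRCh38.p14, written 5′ to 3′ on the gene's strand, with every CG dinucleotide in capitals. They lie at chr19:23395472-23395721 (minus strand, ZNF91), chr19:47573149-47573398 (minus, ZNF541), chr19:39296157-39296406 (plus, IFNL1) and chr19:17688355-17688604 (minus, UNC13A). The listed start of ZNF541 lies inside its annotated gene span, which ends at position 47573309, so much of that sequence is within the gene.
ZNF91: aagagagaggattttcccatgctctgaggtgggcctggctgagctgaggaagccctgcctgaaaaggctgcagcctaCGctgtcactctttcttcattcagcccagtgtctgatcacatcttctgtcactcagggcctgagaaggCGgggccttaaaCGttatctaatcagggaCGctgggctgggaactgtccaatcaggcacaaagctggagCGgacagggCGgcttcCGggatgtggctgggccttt
ZNF541: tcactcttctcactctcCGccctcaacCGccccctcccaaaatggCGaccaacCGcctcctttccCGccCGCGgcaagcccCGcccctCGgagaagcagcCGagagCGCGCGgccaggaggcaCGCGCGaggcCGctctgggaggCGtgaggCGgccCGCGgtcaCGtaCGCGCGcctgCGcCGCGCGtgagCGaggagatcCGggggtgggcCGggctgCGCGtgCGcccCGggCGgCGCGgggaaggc
IFNL1: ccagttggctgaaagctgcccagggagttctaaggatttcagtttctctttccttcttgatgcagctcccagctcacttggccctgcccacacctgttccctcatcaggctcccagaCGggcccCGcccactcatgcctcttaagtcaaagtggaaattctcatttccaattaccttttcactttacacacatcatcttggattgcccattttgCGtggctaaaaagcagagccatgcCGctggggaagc
UNC13A: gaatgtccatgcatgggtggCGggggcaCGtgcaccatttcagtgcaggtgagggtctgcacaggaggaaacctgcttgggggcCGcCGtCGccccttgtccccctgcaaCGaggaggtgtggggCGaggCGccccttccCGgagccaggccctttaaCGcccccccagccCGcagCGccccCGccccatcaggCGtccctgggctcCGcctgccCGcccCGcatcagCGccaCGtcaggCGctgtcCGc
CG dinucleotides, counted once since both strands read CG alike, numbered 7 before ZNF91, 39 before ZNF541, 4 before IFNL1 and 21 before UNC13A.

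Mature microRNAs are given for the placental microRNA cluster and the set that follows it. They are shown because this stretch lay mostly in macroH2A1 domains beside a bare zinc finger cluster. The cluster encodes microRNAs of the primate placenta and is followed by a small set of embryonic stem cell microRNAs. The 50 hairpins from MIR512-1 to MIR373, at chr19:53666679-53788773, gave 73 named mature microRNAs in the RefSeq table, with 39 different seeds (bases 2 to 8, in capitals). The seed UCUAGAG was shared by 11 of them, and the seed AAGUGCU by the 7 shown here, all on the plus strand.
hsa-miR-520e-3p: aAAGUGCUuccuuuuugaggg
hsa-miR-520a-3p: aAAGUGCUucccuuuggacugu
hsa-miR-520b-3p: aAAGUGCUuccuuuuagaggg
hsa-miR-520c-3p: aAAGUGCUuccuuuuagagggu
hsa-miR-520d-3p: aAAGUGCUucucuuuggugggu
hsa-miR-372-3p: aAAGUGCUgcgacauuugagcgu
hsa-miR-373-3p: gAAGUGCUucgauuuuggggugu
The hairpins of miR-520e, miR-520d, miR-372 and miR-373 lay in a domain of all 4 libraries, that of miR-520a in 3, and those of miR-520b and miR-520c in 2.

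A larger share of chromosome 19 than of the other chromosomes together lay in macroH2A1 domains in every library. Domains covered 28.9% and 26.5% of it in siANP32B libraries, against 26.8% and 23% in siControl libraries. The other chromosomes together were covered to 18.1% and 17.9% in siANP32B libraries, against 16.6% and 14.99% in siControl libraries. Chromosome 19 lay above the other chromosomes by 9.41 percentage points on average and did so in 4 of 4 libraries (exact sign-flip permutation p = 0.13, two-sided, the smallest that 4 libraries can give). It ranked 1 among 24 chromosomes in coding genes per megabase (24.8) and 5 in covered share, behind chromosomes 20, 17, 16 and 2. Domains on chromosome 19 were not longer than elsewhere, with medians of 44 and 40.5 kb in siANP32B libraries, against 36 and 37 kb in siControl libraries. Elsewhere the medians were 47 and 48 kb in siANP32B libraries, against 38 and 39 kb in siControl libraries.

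Along the chromosome, coverage was high on both arms and close to nothing around the centromere. In steps of 5 Mb counted from the short-arm end, the covered share of the first step was 43.2% and 35.7% in siANP32B libraries, against 43.5% and 38.0% in siControl libraries. The step from 45 to 50 Mb, which holds 182 coding genes of which 3 are zinc finger genes, was covered to 43.9% and 42.3% in siANP32B libraries, against 43.5% and 36.4% in siControl libraries. The step from 20 to 25 Mb was covered to 0.620% and 0.700% in siANP32B libraries, against 1.00% and 0.540% in siControl libraries. That step is not empty of genes: 32 of its 34 coding genes are zinc finger genes. The step from 25 to 30 Mb, which holds most of the gene-free stretch at the centromere, was covered to 2.88% and 1.34% in siANP32B libraries, against 3.10% and 0.720% in siControl libraries. At the long-arm end, where 73 of 135 coding genes are zinc finger genes, coverage fell back to 20.4% and 18.2% in siANP32B libraries, against 19.97% and 17.8% in siControl libraries.

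**Figure D1:**
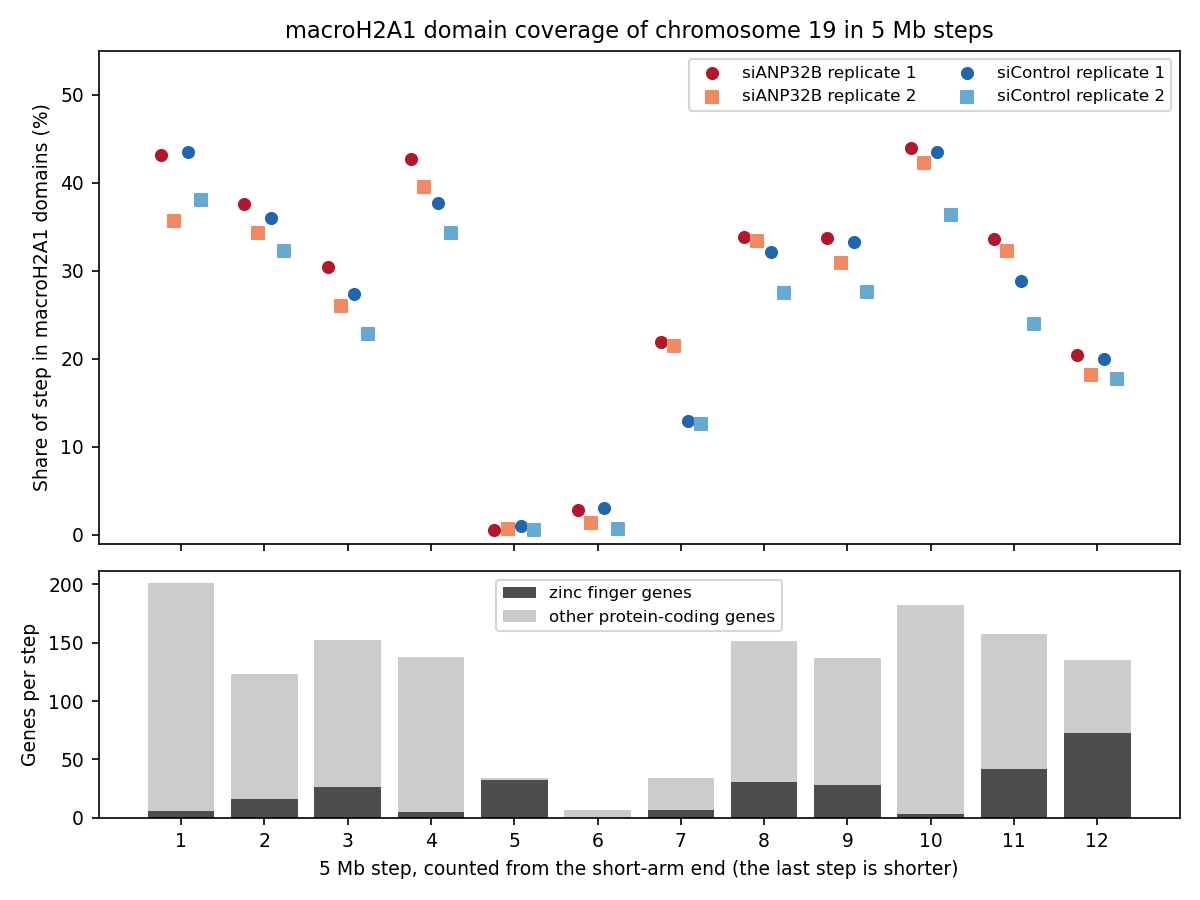
Share of each 5 Mb step of chromosome 19 inside macroH2A1 domains, in percent (top; 1 point per library, siANP32B left of siControl) and the number of zinc finger and other protein-coding genes in the step (bottom). Steps 5 and 6, which both hold part of the gene-free stretch at the centromere, lie at 3.10% or less in every library, and step 7 is the step in which the siANP32B points stand farthest above the siControl points.

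Across the 12 steps, the mean coverage over libraries went with the density of coding genes (Pearson r = 0.80, Spearman rho = 0.57, n = 12 steps of the same libraries, given as a description).

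Zinc finger genes were almost bare of macroH2A1 domains, unlike the other coding genes of the chromosome. Zinc finger gene bodies were covered to 1.80% and 1.22% in siANP32B libraries, against 1.77% and 1.95% in siControl libraries. Other protein-coding gene bodies were covered to 32.3% and 29.7% in siANP32B libraries, against 29.1% and 24.998% in siControl libraries. The gap averaged -27.3 percentage points and was present in 4 of 4 libraries (exact sign-flip permutation p = 0.13, the smallest possible). Of 269 zinc finger genes, 239 (88.8%) had no base in a domain of any library, against 452 of 1182 other coding genes (38.2%). Of the zinc finger genes 1 (0.372%) was covered over at least 50% of its length in all 4 libraries, against 212 other coding genes (17.9%) and 11.5% of all coding genes of the genome. Zinc finger genes resemble one another closely and the sources say nothing on how reads matching several places were handled, so the coverage of near-identical copies is uncertain.

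**Figure D2:**
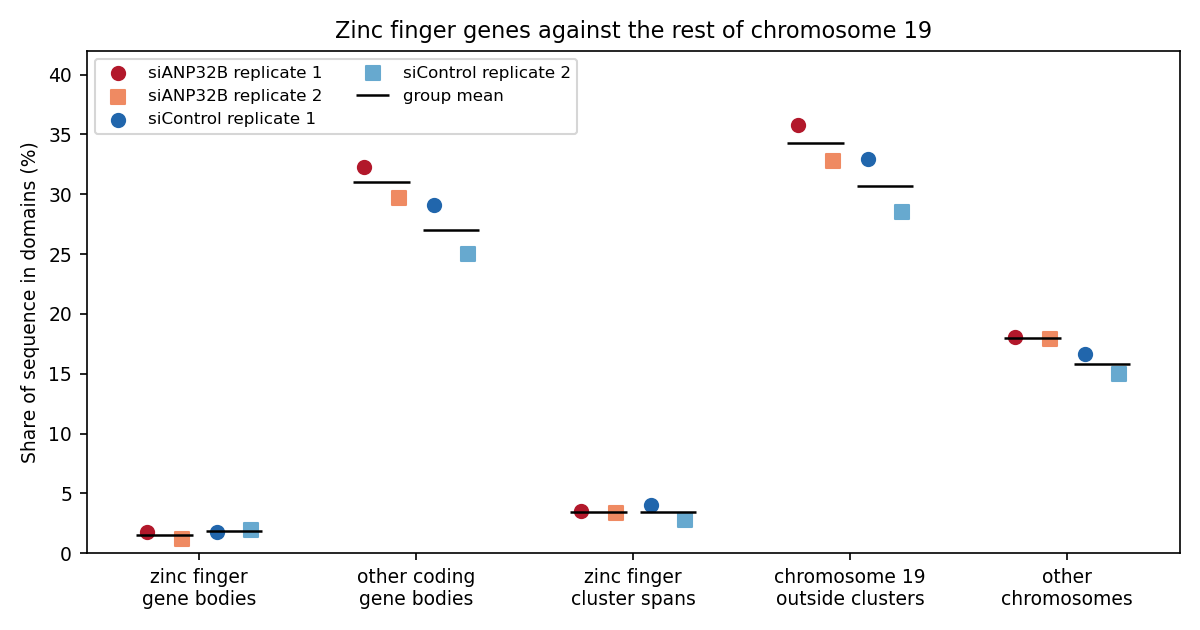
Share of sequence inside macroH2A1 domains, in percent, for zinc finger and other coding gene bodies, zinc finger cluster spans, the rest of chromosome 19 and all other chromosomes. Points are libraries, siANP32B left of siControl, and bars are group means (n = 2). Zinc finger gene bodies stay below 2% in every library while other coding gene bodies lie between 24.998% and 32.3%.

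The contrast was present at every gene length. In the shortest of 3 equal length classes of coding genes, 0 of 30 zinc finger genes were covered in all 4 libraries, against 73 of 454 other coding genes. In the middle class the counts were 0 of 96 zinc finger genes against 66 of 387 other coding genes, and among the longest 1 of 143 against 73 of 341. Zinc finger genes of other chromosomes were covered more often than those of chromosome 19, with 14 of 350 (4.0%) in all 4 libraries and a mean coverage of 11.2% against 1.78% on chromosome 19. Other coding genes of other chromosomes were covered in all 4 libraries in 11.4% of cases.

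Zinc finger genes lie in 12 clusters (runs of at least 5 with gaps of at most 250 kb) that hold 246 of the 269 and span 12.5 Mb, 21.3% of the chromosome. Cluster spans, with everything between the genes, were covered to 3.53% and 3.36% in siANP32B libraries, against 4.05% and 2.76% in siControl libraries. Sequence outside clusters was covered to 35.8% and 32.8% in siANP32B libraries, against 32.9% and 28.5% in siControl libraries, a mean gap of -29.1 percentage points (4 of 4 libraries, exact sign-flip permutation p = 0.13). The clusters from ZNF317 to ZNF846, from ZNF101 to ZNF486 and from ZNF565 to ZNF573 held no domain in any library, and the last of these spans 1598 kb. The cluster at the long-arm end, from ZIM3 to ZBTB45, holds 50 zinc finger genes, and none of their bodies had a base in a domain of any library. The largest cluster by length, 2865 kb from ZNF737 to ZNF91 beside the centromere, was covered to 1.08% and 1.05% in siANP32B libraries, against 1.75% and 0.942% in siControl libraries. Genes of other kinds inside cluster spans were also less often covered, with 5 of 53 (9.43%) in all 4 libraries against 207 of 1129 (18.3%) outside the spans.

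Some clusters held domains while none of their zinc finger genes had a base in one. The cluster from ZNF628 to ZNF580 was covered to 38.5% and 47.3% in siANP32B libraries, against 49.1% and 48.5% in siControl libraries, yet the bodies of its 7 zinc finger genes were at 0 in every library. The same held for the 23 zinc finger genes from ZNF575 to ZNF180, whose span was covered to 10.3% and 8.25% in siANP32B libraries, against 10.9% and 9.38% in siControl libraries. Not every cluster showed this, and in that from ZNF787 to PEG3 the zinc finger gene bodies had a mean coverage of 9.34%, against 8.38% for the whole span. The cluster from ZNF787 to PEG3 was lower in both siANP32B libraries, at 5.71% and 5.27%, against 14.03% and 8.495% in siControl libraries. The cluster from ZNF302 to ZNF792 was higher in both, at 38.9% and 22.98%, against 14.3% and 18.8% in siControl libraries. Groups did not overlap in 3 of 12 clusters, those from ZNF628 to ZNF580, ZNF787 to PEG3 and ZNF302 to ZNF792 (exact permutation p = 0.333 for each). Random order of 2 against 2 libraries separates groups in either direction at a rate of 0.333. The count of clusters is not above that rate, and their differences are given as a description. For ZNF302 to ZNF792 the difference of 14.4 points turned to -4.51 with either filter on domain score, and was 6.42 without siANP32B replicate 1 and 22.4 without siANP32B replicate 2. For ZNF787 to PEG3 the difference of -5.77 points was -1.59 with either filter, with overlapping groups, and -3.005 without siControl replicate 1. For ZNF628 to ZNF580 the difference of -5.92 points was -1.48 without siANP32B replicate 1 and -10.4 without siANP32B replicate 2.

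The few covered zinc finger genes were exceptions of different kinds. ZNF541 was covered over 97.5% and 100% of its body in siANP32B libraries, against 100% and 93.7% in siControl libraries, by domains of 55 to 94 kb. It lies outside the clusters. ZSCAN5B, within the cluster that ends at PEG3, was covered over 100% and 100% in siANP32B libraries, against 16.03% and 100% in siControl libraries. ZNF574 had no base in a domain in siANP32B libraries, against 50.1% and 100% in siControl libraries. ZBTB32, a regulator of lymphocytes, was covered over 27.6% and 19.6% in siANP32B libraries, against 100% and 35.6% in siControl libraries.

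Starts of genes showed the same contrast. Of 232 zinc finger genes with a RefSeq start, 4.31% and 3.88% had the start in a domain in siANP32B libraries, against 4.74% and 3.45% in siControl libraries. Of 953 other coding genes, 42.2% and 35.6% had it in siANP32B libraries, against 42.2% and 31.9% in siControl libraries. In both sets coverage dropped just inside the gene. At 4 kb past the start it was 35.3% and 30.3% in siANP32B libraries, against 33.5% and 27.1% in siControl libraries, for other coding genes. For zinc finger genes it was 1.72% and 0.862% in siANP32B libraries, against 1.29% and 1.72% in siControl libraries. Bodies of other coding genes of at least 4 kb were also split at the middle. The first and second parts of these bodies were covered to 32.4% and 30.0% (first) and 30.3% and 27.5% (second) in siANP32B libraries. In siControl libraries they were covered to 30.1% and 26.0% (first) and 26.1% and 22.99% (second). The second part was lower in 4 of 4 libraries (809 genes, exact sign-flip permutation p = 0.13).

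**Figure D3:**
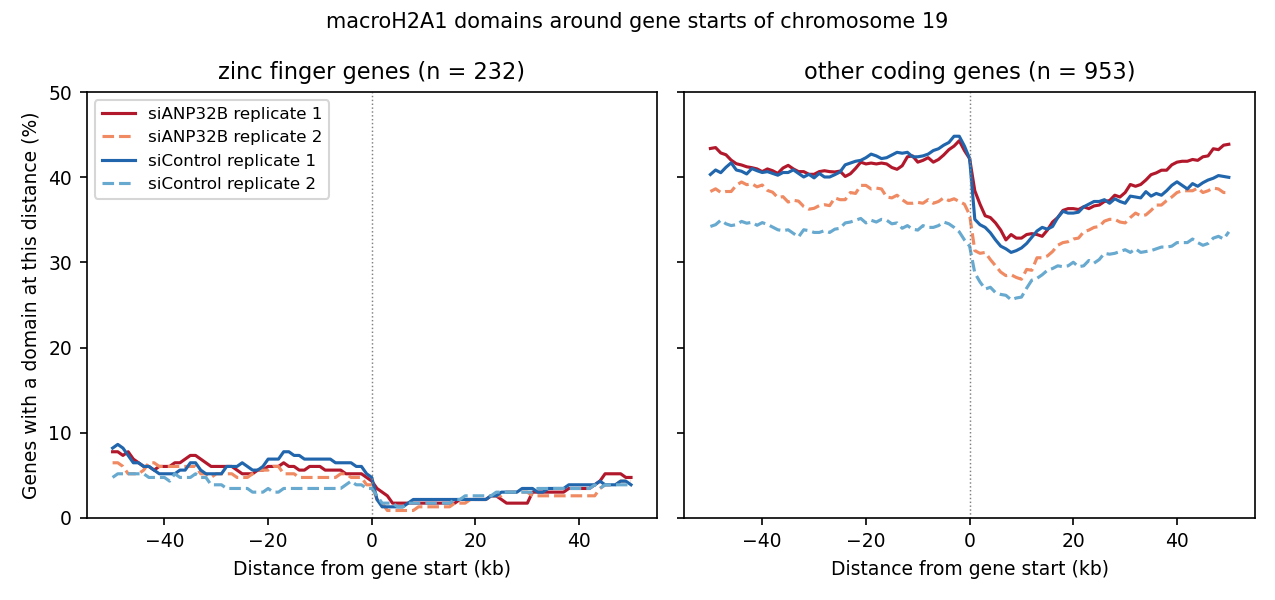
Share of genes of chromosome 19 with a macroH2A1 domain at each distance from the gene start, in percent, for 232 zinc finger genes (left) and 953 other coding genes (right), 1 line per library. Zinc finger genes stay under 10% over the whole 50 kb on either side, and both sets show a step down just after the start.

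CG dinucleotides before the start were fewer in covered than in bare genes outside the zinc finger family. Among these other coding genes, the median number in 250 bases was 11 for the 204 starts in a domain of all 4 libraries, 16 for the 334 starts in 1 to 3 libraries and 20 for the 415 starts in none. The GC content had the same median, 63.6%, in all of these sets. At least 10 CG dinucleotides were found in 54.4% of the starts in all 4 libraries and in 76.4% of the starts in none, against 68.6% of 15843 coding gene promoters of the genome. Zinc finger promoters had a median of 16 both for the 17 starts in a domain of any library and for the 215 in none, and at least 10 were found in 88.2% of the starts in any library, against 84.2% of the starts in none. These counts describe letters in the window and were not tested.

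The longest stretches common to both siControl libraries were almost fully covered after siANP32B too. The longest ran for 228 kb over ZNRF4 and TINCR at chr19:5341001-5569000, followed by 187 kb over the chemokine gene CCL25 and the fibrillin gene FBN3 and 176 kb over MATK, ZFR2, ATCAY and NMRK2. Stretches of 150, 145, 142 and 135 kb held FBXO27, ACP7 and PAK4, then LMNB2, GADD45B and GNG7, then ONECUT3 and ATP8B3, then CELF5. The last 3 of the 10 ran over the calcium channel subunit genes CACNG7, CACNG8 and CACNG6 with VSTM1 (127 kb), over GPR42, FFAR2 and KRTDAP (124 kb), and over CCDC8, PNMA8C, PNMA8A and PNMA8B (122 kb). Every one of these stretches was at least 90.2% covered in each siANP32B library, and none held a gene of the zinc finger set, which was taken by symbol and does not include ZFR2.

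Groups of related genes differed widely in coverage, counting members with at least 50% of the body in domains of all 4 libraries. The 4 interferon lambda genes IFNL1 to IFNL4 were covered over 100% of their bodies in every library. The domain over IFNL1 was 177 and 75 kb long in siANP32B libraries, against 42 and 28 kb in siControl libraries. Both siANP32B domains also took in IFNL3, which in siControl libraries lay in a separate domain of 101 and 84 kb. Of 19 ion channel and neuronal genes 9 were covered, among them KCNN1, NCAN, CACNG8 and CACNG6, while the glutamate receptor gene GRIN3B was at 0. Of 12 cytochrome P450 genes 3 were covered, namely CYP4F22, CYP4F8 and CYP2B6. Of 20 olfactory receptor genes 3 were covered (OR1I1, OR10H3 and OR10H4), and 7 had no base in any domain. That share of 15% is close to the 17.9% of other coding genes of the chromosome.

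Immune receptor families held both covered and bare genes, as did the other coding genes of the chromosome. Of 21 leukocyte receptor genes 4 were covered, led by the inhibitory collagen receptors LAIR1 and LAIR2 at 100% in every library, while KIR2DL4, KIR3DL1 and KIR3DL2 were at 0 in every library. Of 13 SIGLEC genes 2 were covered, SIGLEC11 and the myelin gene MAG, both outside the main cluster. Of 9 NLRP genes 2 were covered, NLRP12 and NLRP5. Of 21 CEACAM and PSG genes only CEACAM8 was covered in all 4 libraries. No kallikrein gene, chorionic gonadotropin gene or member of the imprinted gene list (7 genes, with the maintenance DNA methyltransferase DNMT1, which is also counted with heterochromatin machinery) reached all 4 libraries. Reads from the near-identical copies in the KIR, PSG and CGB families are uncertain for the reason given for zinc finger genes.

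Housekeeping groups had low coverage, although some of their members met a domain. No base lay in a domain of any library for 8 of 13 ribosomal protein genes and 8 of 11 oxidative phosphorylation genes. The same held for 6 of 9 genes of heterochromatin machinery, and with so few members the counts are given as a description. No member was covered in all 4 libraries among 13 ribosomal protein genes, 11 oxidative phosphorylation genes or 9 genes of heterochromatin machinery, with mean coverages of 6.996%, 1.60% and 1.41%. TRIM28, the corepressor of KRAB zinc finger proteins, SMARCA4, SAFB and SAFB2 were at 0 in every library. Hepatocyte genes were mixed. APOE, APOC1, APOC4, APOC2 and the complement gene C3 were at 0 in every library, while the hormone gene FGF21 was at 100% in every library. In total, 2 of 19 hepatocyte genes were covered, FGF21 and CYP2B6. These counts stand beside 17.9% of other coding genes of the chromosome.

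**Figure D4:**
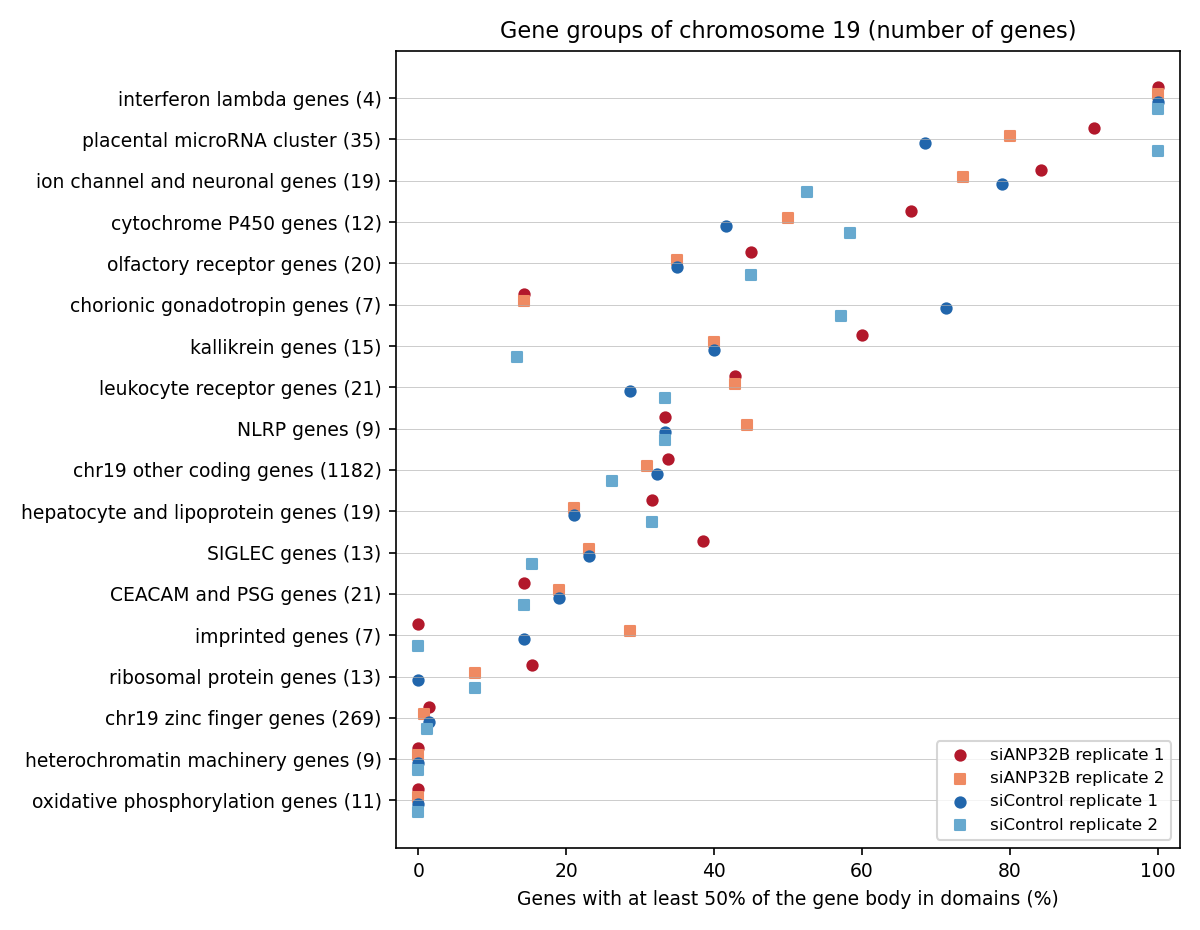
Share of genes in each group with at least 50% of the body in macroH2A1 domains, in percent, 1 point per library (siANP32B above siControl in each row), with the number of genes in brackets. Interferon lambda genes stand at 100% in every library, and zinc finger, oxidative phosphorylation and heterochromatin machinery genes stand at the bottom.

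The placental microRNA cluster introduced by its sequences lay mostly in domains. The span from MIR512-1 to MIR373 also takes in the embryonic stem cell microRNAs that follow the cluster. It was covered to 93.4% and 84.4% in siANP32B libraries, against 68.9% and 91.8% in siControl libraries. Of the 50 hairpins in that span 31 lay in a domain of all 4 libraries, against 10 of the other 92 microRNA hairpins of the chromosome. In the listed 35 genes of the cluster, 22 were covered in all 4 libraries. The members of the cluster are neighbours under a few shared domains, so in both counts they are not separate observations. Reads from near-identical hairpin copies are uncertain for the reason given for zinc finger genes. The neighbouring zinc finger cluster, ending with ZNF331 at position 53580269, had 38 of its 41 zinc finger genes at 0 in every library. The domain over the start of the microRNA cluster, at 53666679, began well before that start, inside ZNF331, in every library. It began at 53566001 and 53572001 in siANP32B libraries, against 53580001 and 53579001 in siControl libraries. Relative to the end of ZNF331 it began at -14.3 and -8.27 kb in siANP32B libraries, against -0.268 and -1.27 kb in siControl libraries, negative values lying inside the gene.

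After siANP32B, the median domain on chromosome 19 was longer and short domains were fewer in both libraries, while total coverage overlapped between groups. Domains of 20 kb or less numbered 29 and 28 in siANP32B libraries, against 81 and 51 in siControl libraries. The median length was 42.2 ± 2.47 kb in siANP32B libraries and 36.5 ± 0.707 kb in siControl libraries (SD, n = 2 each). For both quantities the groups did not overlap (exact permutation p = 0.333). The median length on the other chromosomes was 47 and 48 kb in siANP32B libraries, against 38 and 39 kb in siControl libraries. The longer median was therefore not particular to chromosome 19. Covered length was 16.956 and 15.543 Mb in siANP32B libraries, against 15.687 and 13.478 Mb in siControl libraries, a mean of 16.2 ± 0.999 against 14.6 ± 1.56 Mb (SD, n = 2 each, exact permutation p = 0.667). The difference of 1.67 Mb turned to -0.750 Mb with a common minimum score for all libraries, and was 0.562 Mb without siControl replicate 2. Domain scores on chromosome 19 had medians of 83.7 and 73.8 in siANP32B libraries, against 112 and 99.6 in siControl libraries. Scores on the other chromosomes were lower too, with medians of 69.5 and 67.2 in siANP32B libraries, against 87.8 and 97.6 in siControl libraries. The score is the authors' caller's own and its scaling is not stated in the labels or lists. In such bulk profiles, fewer cells carrying macroH2A1 at a place and less macroH2A1 per cell cannot be told apart.

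The zinc finger contrast itself was present after both siRNAs. The gap to other coding genes averaged -29.5 ± 1.47 percentage points in siANP32B libraries and -25.2 ± 3.00 in siControl libraries (SD, n = 2 each). The difference in the gap was -4.31 points (exact permutation p = 0.333, groups not overlapping). It was -2.19 points without siControl replicate 2 and -6.43 without siControl replicate 1, and with the mean over genes it was -3.37 points and the groups overlapped (exact permutation p = 0.667). Coverage differed between siRNAs by 3.96 points in other coding genes and by -0.351 points in zinc finger genes. The difference in the gap turned to 1.15 points with the common score. Zinc finger bodies made up 0.810% and 0.600% of domain sequence in siANP32B libraries, against 0.864% and 1.10% in siControl libraries and 13.03% of the chromosome.

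By step, siANP32B coverage was above siControl coverage without overlap in 4 of 12 steps and below in 0, and the means were higher in 10. Random order of 2 against 2 libraries separates groups in either direction at a rate of 0.333, and this count is not above that rate. The other chromosomes together were also higher without overlap, at 18.1% and 17.9% in siANP32B libraries, against 16.6% and 14.99% in siControl libraries. With all domains, the largest difference of any step was in that from 30 to 35 Mb. It was covered to 21.9% and 21.5% in siANP32B libraries, against 12.96% and 12.6% in siControl libraries, a mean of 21.7 ± 0.283% against 12.8 ± 0.255% (SD, n = 2 each) and a ratio of 1.70 (exact permutation p = 0.333, adjusted over steps 0.8). The difference of 8.92 points was 8.41 with equal numbers of best-scored domains, between 8.72 and 9.12 with any 1 library left out, and 2.66 with the common score. The step holds 34 coding genes, of which 7 are zinc finger genes. The other 3 steps were those from 15 to 20 Mb (42.7% and 39.6% in siANP32B libraries, against 37.8% and 34.3% in siControl libraries), from 35 to 40 Mb (33.8% and 33.3% in siANP32B libraries, against 32.1% and 27.5% in siControl libraries) and from 50 to 55 Mb (33.6% and 32.3% in siANP32B libraries, against 28.9% and 24.02% in siControl libraries). With the common score the first 2 of these had the opposite sign (-0.360 and -0.830 points) and the third was at 0.790 points, against 6.49 with all domains, with overlapping groups. The step from 0 to 5 Mb then had the largest change of any step, -6.59 points, against -1.30 with all domains. Without siControl replicate 2 the differences of the 3 steps were 3.36, 1.46 and 4.05 points, against 5.07, 3.76 and 6.49 with all libraries, and without siControl replicate 1 that from 35 to 40 Mb was 6.06 points.

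The siANP32B-only sequence (called in each siANP32B library and in no siControl library) added up to 1067 kb in 122 stretches, and the siControl-only sequence to 390 kb in 56 stretches. Most of each extended domains of the other group, 63.2% of the siANP32B-only and 59.7% of the siControl-only length. Of the siANP32B-only length 393 kb lay in 18 separate stretches, and 14 stretches closed a gap between siControl domains. The net of 0.677 Mb became -0.167 Mb with the common score, and ranged from 0.330 Mb without siControl replicate 2 to 1.79 Mb without siANP32B replicate 2. The step from 30 to 35 Mb alone held 248 kb of the siANP32B-only length and 1 kb of the siControl-only length. Zinc finger genes were touched by 2 stretches of each kind.

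The longest siANP32B-only stretch, 96 kb at chr19:33657001-33753000, lay inside CHST8, a sulfotransferase gene that acts on pituitary hormones, in that step. The domain there was 96 and 155 kb long in siANP32B libraries, with scores of 65.1 and 30.6. In siControl libraries, CHST8 held only a domain of 19 and 18 kb at its higher-coordinate edge. The next were 36 kb in the transporter gene SLC6A16 (chr19:49292001-49328000), 33 kb at the oocyte gene NLRP5 (chr19:56044001-56077000), 30 kb in the neuronal calcium channel gene CACNA1A (chr19:13357001-13387000) and 30 kb at the edge of the neutrophil gene CD177 (chr19:43324001-43354000). Their domains scored 73.2 and 66.2 (SLC6A16), 44.5 and 36.9 (NLRP5), 93.3 and 37.6 (CACNA1A), and 30.7 and 49.7 (CD177). The common minimum score was 57.8. Of these longest stretches only that in SLC6A16 passed it in both siANP32B libraries. The 5 longest siControl-only stretches scored at least 63.8 in each siControl library. Kallikrein genes, a family of secreted proteases, were covered in 9 and 6 of 15 cases in siANP32B libraries, against 6 and 2 in siControl libraries, and 5 were covered in both siANP32B libraries against 0 in both siControl libraries. These genes are neighbours that can share a domain. Of all other coding genes of the chromosome, 33.8% and 30.9% were covered in siANP32B libraries, against 32.2% and 26.1% in siControl libraries, and 302 of 1182 were covered in both siANP32B libraries, against 267 in both siControl libraries.

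The median length was 6 kb for siANP32B-only and 6 kb for siControl-only stretches, and no siControl-only stretch was longer than 20 kb. The longest, 20 kb at chr19:6048001-6068000, lay in RFX2, a transcription factor gene of ciliated and germ cells. The next, 19 kb at chr19:4155001-4174000, lay in CREB3L3, a liver transcription factor gene, where siControl domains ran on for 52 and 47 kb and siANP32B domains stopped after 31 and 30 kb. A stretch of 18 kb at chr19:49030001-49048000 held the chorionic gonadotropin genes CGB2, CGB1, CGB5 and CGB8. In that family 1 and 1 of 7 genes were covered in siANP32B libraries, against 5 and 4 in siControl libraries, and 4 of the 7 lie in this single stretch, so they are not separate observations. The remaining 2 of the 5 longest, 17 kb each, lay at NRTN and FUT6 (chr19:5819001-5836000) and at chr19:13645001-13662000, where no gene is annotated. SYT5, a synaptotagmin gene, was at 0 and 0 in siANP32B libraries, against 96.8% and 100% in siControl libraries.

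Much of the chromosome's macroH2A1 sequence was common to all libraries. Sequence in all 4 libraries came to 9.887 Mb, which was 74.6% of the 13.252 Mb common to both siANP32B libraries and 85.1% of the 11.621 Mb common to both siControl libraries. The siANP32B libraries had a base-pair Jaccard index of 0.689 with each other, and the siControl libraries 0.662. Between libraries with different siRNAs it was 0.637 to 0.671, so the siControl pair was no more alike than some mixed pairs.

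Region by region, most tested regions of chromosome 19 were lower after siANP32B. At a false discovery rate of 0.05, 122 of 176 regions (69.3%) were lower in the authors' deposited table, against 58.4% of all 4474 regions, and 1 region (0.568%) was higher, against 3.82% of all. On chromosome 19 the median log2 fold was -0.61, and over all regions -0.54, in the authors' deposited table; 173 of the 176 folds were below 0. At a stricter rate of 0.01, 92 of the 176 regions on chromosome 19 were lower in the authors' deposited table, against 1902 of all 4474 (42.5%). At that rate 1 of the 176 was higher in the authors' deposited table, against 125 of all 4474 (2.79%). Folds of at least 1 on the log2 scale downward made up 5.68% on chromosome 19 and 5.77% overall in the authors' deposited table, a share close to that over all regions. Chromosome 19 ranked 2 of 24 chromosomes in the share of lower regions in the authors' deposited table. A single tested region in the authors' deposited table overlapped a zinc finger gene, ZNF557 (log2 fold -1.19), and 3 lay in cluster spans, so these genes were hardly tested there.

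The fall in signal and the presence of domains were separate measures. Most of the 122 lower regions in the authors' deposited table met a domain with at least some part. This held for 97.5% and 96.7% of them in siANP32B libraries, against 100% and 99.2% in siControl libraries. Of the 53 regions not called in the authors' deposited table, 96.2% and 100% did so in siANP32B libraries, against 100% and 90.6% in siControl libraries. The header states neither the direction nor the log base of the folds. They were read as log2, edgeR's convention, and as siANP32B over siControl from other chromosomes, where 170 regions called higher in the authors' deposited table lay in domains in 99.4% and 99.4% of cases in siANP32B libraries, against 88.2% and 80.6% in siControl libraries. The scaling between libraries is nowhere stated in these sources, and every fold would shift with it.

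**Figure D5:**
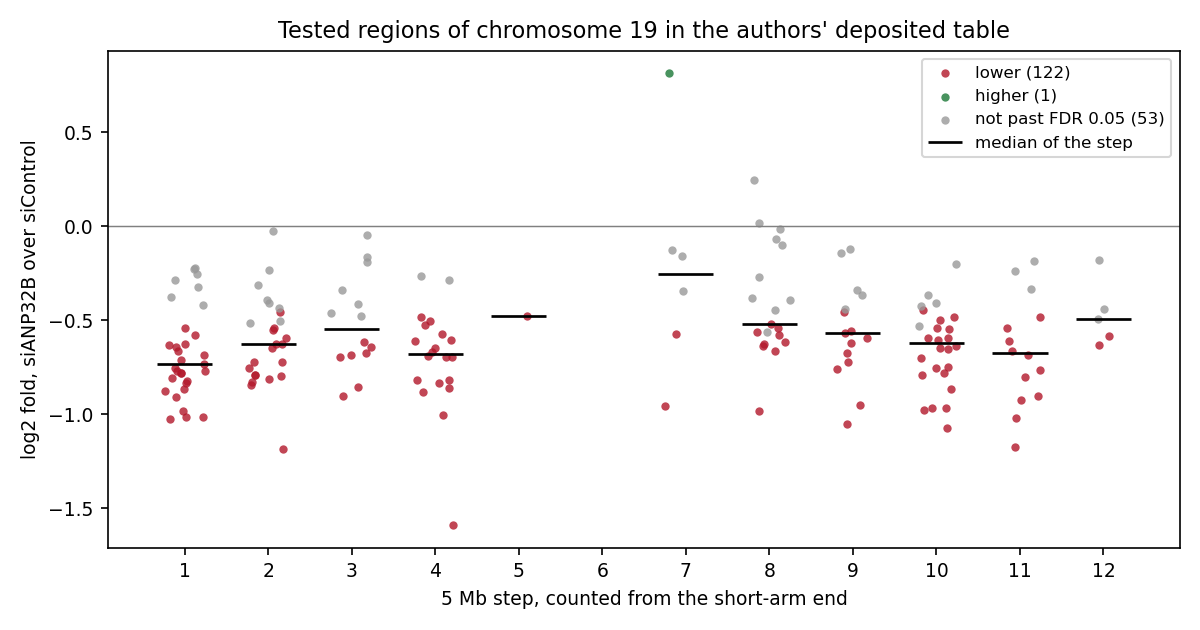
Points are the log2 folds (siANP32B over siControl) of the representative windows of the 176 regions of chromosome 19 in the authors' deposited table. They are placed by 5 Mb step, with the step median as a bar. All but 3 points lie below 0, the lowest is the UNC13A region at -1.59, and the single region called higher lies in step 7.

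The 15 lower regions with the smallest p-values are given by the coding genes they overlapped. The first, at chr19:17675001-17712000 over the start of UNC13A, had a log2 fold of -1.59 (33.2% of the siControl value, false discovery rate 6.97e-13) in the authors' deposited table. UNC13A stayed covered over 93.1% and 85.4% of its body in siANP32B libraries, against 92.0% and 100% in siControl libraries. A second region in UNC13A had a fold of -1.004 in the authors' deposited table. The neuronal adhesion gene IGLON5 had a fold of -1.17 (false discovery rate 2.89e-09) in the authors' deposited table. The 92 kb region at the edge of the cytochrome P450 gene CYP2A7 had a fold of -0.95 in the authors' deposited table. The pacemaker channel gene HCN2 had a log2 fold of -1.03 in the authors' deposited table, although its domain was 35 and 29 kb long in siANP32B libraries, against 24 and 24 kb in siControl libraries.

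The DNA repair gene ERCC1 had a log2 fold of -1.07 in the authors' deposited table, the blood cell kinase gene MAP4K1 -0.98 and the G protein subunit gene GNG7 -1.02. The granzyme gene GZMM had -1.02, the cyclic AMP phosphodiesterase gene PDE4C -0.88 and the cilia gene ODAD3 -0.86 in the same authors' deposited table. Another 3 of the 15 held no coding gene, at chr19:43784001-43795000 (-1.05), chr19:46793001-46819000 (-0.98) and chr19:33236001-33268000 (-0.96) in the authors' deposited table. By group, 6 of the 7 tested ion channel and neuronal genes and all 5 tested cytochrome P450 genes overlapped a lower region in the authors' deposited table. Of all chromosome 19 regions in the authors' deposited table, 69.3% were lower. That share counts regions and not genes, and the share among all tested genes is not given here. The counts are therefore not read as a result about these groups. CYP4F8 and CYP4F3 shared 1 of these regions. Lower regions in the authors' deposited table also met the tested members MAG and SIGLEC11, NLRP12, LILRB4, UHRF1, HAMP and CYP2B6, whereas KLK15 met a region that did not pass.

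The region called higher lay at chr19:34966001-35008000 and overlapped GRAMD1A, a sterol transfer gene, with a log2 fold of 0.81 (false discovery rate 0.00163) in the authors' deposited table. Of its 31 windows 4 were up and 0 down in the authors' deposited table. The domain over this region scored 167 and 193 in siANP32B libraries, against 149 and 143 in siControl libraries. It lies next to the cluster from ZNF302 to ZNF792. In the step from 30 to 35 Mb, 2 of the 6 tested regions were lower in the authors' deposited table and the median log2 fold was -0.25, the least negative of the 11 steps with tested regions.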

How the data were processed

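Macro-domain calls of 4 anti-macroH2A1 CUT&RUN libraries of HepG2 cells (2 siANP32B, 2 siControl) were used. The submitters' processing notes name build hg38 and the tools Bowtie2, SICER, edgeR, deepTools, SAMtools and Trim Galore, with no versions, settings or control library. The authors deposited a domain list per library, on a 1 kb grid, with a score per domain whose scaling is not stated. The authors' deposited table gives for each region, per the file headers, its p-value, its false discovery rate, window numbers, and a fold read as log2, the convention of edgeR. It has 0 columns with values per sample, so no count test was possible.

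Domains were set on 1 kb bins up to the last annotated feature (58.6 Mb for chromosome 19). Genes, starts and sequences came from RefSeq GRCh38.p14; 1185 of 1451 coding genes had a start. Zinc finger genes were taken by symbol (ZNF, ZFP, ZSCAN, ZBTB and the like). Groups were compared by two-sided exact permutation tests over libraries, and chromosome 19 or zinc finger genes with the rest by sign-flip within libraries, with Benjamini-Hochberg adjustment over steps (scipy 1.17.1, pandas 2.3.3). Depth is unknown, so no counting interval is given. The code was tested on simulated data. Named genes are those of the 15 regions with the smallest p-values, the 10 longest siControl stretches, the 5 longest stretches of each group, cluster ends with their most covered members, and up to 4 members per list with those in called regions; genes named beyond these were picked with their values in view. A few genes that the rule names are not reported here. The members, the 16 gene lists and this rule were chosen with earlier results of these data known. Alternatives were a common minimum score, equal numbers of domains, leaving out each library, other thresholds, and a replicate block.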

Additional observations from a re-analysis of the deposited data

How the results depend on the processing

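The zinc finger gap stayed between -23.3 and -28.8 percentage points, and the gap of chromosome 19 to other chromosomes between 8.91 and 10.7, in every setting run. With a common minimum score (the 25th percentile of all lists), covered length changed by -0.750 Mb and the net of group-only stretches by -0.167 Mb, higher steps made up 25% of steps, and the changes of the zinc finger and cluster gaps were 1.15 and 0.355 points. Step changes there were -6.59 (0 to 5 Mb), -1.55 (5 to 10 Mb), -0.670 (10 to 15), -0.360 (15 to 20), -0.830 (35 to 40), -4.78 (40 to 45), -2.48 (45 to 50) and -1.68 points (55 to 59), and cluster changes -2.15 (ZNF653 to ZNF791) and -4.51 (ZNF302 to ZNF792). With equal numbers of best-scored domains, the change of chromosome 19 minus the rest was -0.0988, of the first step 0.140 and of ZNF302 to ZNF792 -4.51 points. Leaving out each library gave -51 to 17 for domain number (17 without siControl replicate 1), 0.562 to 2.77 Mb for covered length, 0.330 to 1.79 Mb for the stretches, 41.7% to 100% of steps higher, and -0.484 to 1.80 points for chromosome 19 minus the rest. Steps then ranged from -5.06 to 2.46 (0 to 5 Mb), -0.0300 to 3.71 (5 to 10), -0.340 to 0.120 (20 to 25), -0.990 to 1.39 (25 to 30), -1.05 to 4.63 (40 to 45), -0.370 to 6.71 (45 to 50) and -0.639 to 1.58 (55 to 59), and clusters from -1.91 to 0.155 (ZNF575 to ZNF180) and -0.681 to 0.122 (ZNF737 to ZNF91). The cause of these changes was not tested. In 2 Mb steps 21 of 30 were higher. The stricter false discovery rate gave 92 lower regions, and a log2 fold of at least 0.5 gave 115, in the authors' deposited table. Same-numbered libraries deviated together over steps (r = 0.46, 12 steps), but with 2 pairs the numbers are not taken to pair. With 2 complete pairs a replicate block cannot move a difference, so covered length kept 1.67 Mb by construction (exact permutation p = 0.5, the smallest possible). Zinc finger genes defined from protein sequence were not run, as no protein table was used here.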
